A study of Rattus norvegicus with 24 samples.

Results

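The 35 genes described here encode the oxygen-sensing machinery built around the hypoxia-inducible factor (HIF), the enzymes and transporters of glycolysis, and other genes known as HIF targets. They were taken by gene symbol from a list chosen because such genes rose in rat striatal cultures given the dopamine D1 receptor agonist SKF for 24 h, so that they were chosen by their FPKM with SKF against DMSO at 24 h, which is given below as a description only. All 35 were found among the 32883 genes in each file, and all 35 were among the 13999 genes tested. In cells with enough oxygen, prolyl hydroxylases such as Egln1 and Egln3 mark the Hif1a protein for binding by Vhl, which leads to its breakdown; when oxygen is short, Hif1a accumulates, pairs with Arnt and binds DNA at hypoxia response elements. Its known targets include glucose transporters, most enzymes of glycolysis, lactate dehydrogenase A and the vessel growth factor Vegfa, and many of the same genes also respond to growth factor and calcium signalling. Neurons draw on glycolysis during activity, and astrocytes are known for making lactate.

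The study asked how bromodomain inhibitors affect D1 receptor-induced expression in primary striatal neurons from neonatal rats, at day 7 in vitro, with RNA sequenced after ribosomal RNA depletion. JQ1 is an inhibitor of the BET bromodomain proteins, which bind acetylated chromatin; iBD2 is the other bromodomain inhibitor of the study. Experiment 1 held cultures given DMSO, JQ1, SKF or SKF plus JQ1 for 60 min, experiment 2 held DMSO, iBD2, SKF or SKF plus iBD2 for 60 min, and experiment 3 held DMSO, JQ1, SKF or SKF plus JQ1 for 24 h. Every group had 2 libraries, numbered 5 and 6 in experiments 1 and 3 and 1 and 2 in experiment 2, except SKF plus iBD2, where only replicate 1 is analysed here, which leaves 23 libraries. Cultures without SKF or without an inhibitor received DMSO in its place. The labels give no dose, no sex, and nothing on how cultures were pooled or whether replicates came from separate cultures, so p-values rest on the spread between libraries alone, and that spread may be technical. Time and experiment cannot be told apart, since all 24 h libraries belong to experiment 3.

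The libraries held between 4.36 and 14.9 gigabases of aligned sequence, and mitochondrially encoded transcripts took 5.31 to 10.7% of it. The summed FPKM (fragment counts scaled by transcript length and by library size) of 14 striatal neuron markers lay between 2060 and 2740 in every library. Other cells were present: the sum of 10 astrocyte markers ranged from 336 to 470 (experiment 1), from 138 to 149 (experiment 2) and from 327 to 503 (experiment 3). Oligodendrocyte lineage markers summed to between 37.7 and 75.8, and 8 of 9 endothelial and mural markers stayed under 0.5 in every library. The summed FPKM of 10 microglia markers was 81.6 to 102 with DMSO at 24 h, 36.9 to 50.9 with SKF, 12.8 to 17.1 with JQ1 and 1.93 to 3.46 with both. In such bulk samples, fewer cells of a type and less RNA per cell cannot be told apart. Treatments showed in known responders: Nr4a2, an immediate early gene, rose with SKF at 60 min by a log2 difference of 2.98 ± 0.074 (SE, adjusted p = 2.68e-14), and Hexim1, a known marker of BET inhibition, rose with JQ1 at 60 min by 1.22 ± 0.089 (adjusted p = 9.44e-08).

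With SKF alone for 24 h, 29 of the 35 genes had both SKF libraries above both DMSO libraries, and 3 had both below. Over all genes tested, 16.8% stood apart upwards and 21.3% downwards in the same way; since this comparison chose the genes, nothing is read from these counts. The 3 that went against the description of the list were Vhl (log2 difference of -0.12), Egln3 (-0.12) and Pfkfb4 (-0.23), and the libraries overlapped for Adm, P4ha2 and Slc2a3. The largest differences were those of Vegfa at 1.30, Ankrd37 at 1.15, Ak4 at 1.07, Slc16a3 at 0.76 and Hk2 at 0.69. All differences are on the scale of log2(FPKM / size factor + 0.5), which understates the change of weakly expressed genes, and Ankrd37, Ak4, Slc16a3 and Hk2 were such genes. The median over the 35 genes was 0.33, beside -0.007 over all genes tested.

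The same agonist was also given for 24 h together with JQ1, and SKF plus JQ1 against JQ1 shares no library with the comparison that chose the genes. In these libraries 12 of the 35 genes rose, none fell, and 23 did not pass the test (limma, adjusted p under 0.05 by Benjamini-Hochberg over all genes tested). Over all genes tested 51 rose, which is 0.364%, and 110 fell, which is 0.786%. The 12 were Vegfa, the lactate dehydrogenase gene Ldha, 8 of the 13 glycolytic enzymes (Hk2, Gpi, Pfkl, Aldoa, Tpi1, Pgk1, Eno1 and Pkm), the glucose transporter Slc2a1 and the histone demethylase Kdm3a. Hk2 reached an FPKM of 0.5 in only 2 libraries, both of SKF at 24 h, so it entered the test through the group for which it was chosen; without it 11 of 34 genes and 7 of 12 glycolytic enzymes rose. The median log2 difference was 0.18 over the 35 genes and -0.002 over all genes tested, and 30 of the 35 values lay above 0. For 27 genes both SKF plus JQ1 libraries stood above both JQ1 libraries, against 20.5% of all genes tested, and for 1 both stood below, against 21.5%. Hk2 and Slc16a3 are among the 30 and the 27. Slc16a3 also reached 0.5 in only 2 libraries, replicate 6 of SKF and replicate 5 of SKF plus JQ1 at 24 h. No support is drawn from either gene. Microglia markers moved in the same libraries: 5 of 10 fell, among them C1qc, a complement component, by 2.38 on the log2 scale, while 0 of 9 astrocyte markers passed the test in either direction; the part of microglia in the results was not tested.

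**Figure D1:**
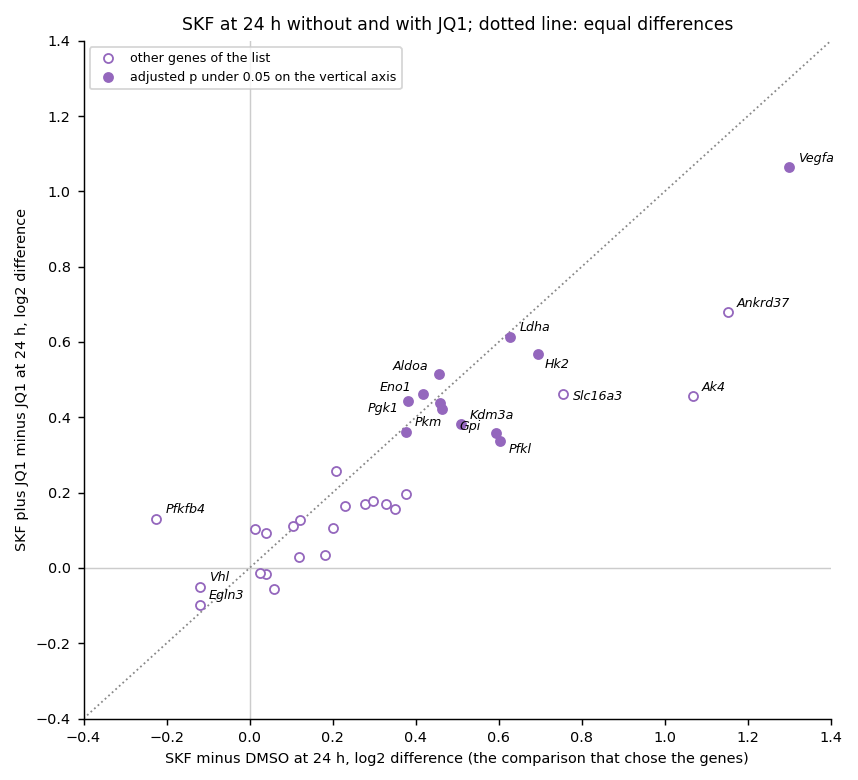
Each point is 1 of the 35 genes. The horizontal axis gives the log2 difference of SKF against DMSO at 24 h, which chose the genes, and the vertical axis gives that of SKF plus JQ1 against JQ1 at 24 h, from other libraries; filled points passed the test on the vertical axis. The dotted line marks equal differences. Vegfa is the highest point on both axes (1.30 and 1.06), Ldha and Aldoa lie near the line, and Ankrd37, Ak4 and Slc16a3 lie below it.

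Of the 35 genes, 32 had a promoter window in the RefSeq table of build GRCr8, and Bnip3l, Pgk1 and Slc2a3 had none. The windows run from 250 bases before the annotated start of transcription to 50 bases after it, and were searched for the core letters of the hypoxia response element, ACGTG or GCGTG, on both strands, so that CACGT and CACGC on the printed strand also count and CACGTG counts once for each strand. The motif was in 24 of the 38 windows of these genes (63.2%) and in 41.6% of all 33469 windows. It was in 8 of the 16 windows of the genes that rose under JQ1 at 24 h (50.0%). Counted by gene, 23 of 32 members (71.9%), 7 of the 11 genes that rose under JQ1 and had a window (63.6%; 7 of 10 without Hk2) and 44.6% of all 27457 genes held it in at least 1 window. The base composition of the windows was not compared, and a match is a description of letters, not a site. The 6 stretches below are shown because they hold every match wholly upstream of the start in a window of 6 genes that rose, with matches in capitals, 15 bases around the outermost matches where the window allows, and each read 5′ to 3′ on the strand of its gene.
Slc2a1: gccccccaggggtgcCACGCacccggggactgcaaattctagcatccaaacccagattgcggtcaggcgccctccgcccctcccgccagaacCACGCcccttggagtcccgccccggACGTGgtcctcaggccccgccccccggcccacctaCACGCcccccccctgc
Ldha: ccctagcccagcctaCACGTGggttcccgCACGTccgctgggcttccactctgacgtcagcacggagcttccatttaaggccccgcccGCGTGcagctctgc
Pfkl: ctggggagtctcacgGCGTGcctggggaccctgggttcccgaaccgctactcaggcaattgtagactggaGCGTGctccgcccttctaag
Aldoa: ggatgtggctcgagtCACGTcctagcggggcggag
Eno1: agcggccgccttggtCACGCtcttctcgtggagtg
Kdm3a: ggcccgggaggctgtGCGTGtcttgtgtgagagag
In GRCr8 the Slc2a1 stretch is chr5:138002354-138002521 on the plus strand, with 4 matches whose first letters lie at -153, -76, -51 and -16 from the start. The Ldha stretch is chr1:106507990-106508091 on the plus strand and holds a palindromic CACGTG at -87, whose strands give overlapping matches at -87 and -86, and further matches at -73 and -14. The Pfkl stretch is chr20:10663735-10663824 on the plus strand, with matches at -215 and -160. The Aldoa stretch is chr1:190836950-190836984 on the minus strand (match at -192), the Eno1 stretch chr5:166003228-166003262 on the plus strand (match at -118) and the Kdm3a stretch chr4:105233303-105233337 on the minus strand (match at -211). A further start of Eno1 had a match at -13, and Gpi had its match at 32 after the start. The windows of Vegfa, Hk2, Tpi1 and Pkm did not hold these letters, which says nothing of sequence outside them.

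Vegfa, the secreted growth factor of blood vessels, changed most. Its FPKM at 24 h was 6.12 and 5.77 with DMSO, 5.30 and 4.59 with JQ1, 14.9 and 15.9 with SKF and 11.7 and 10.3 with SKF plus JQ1. Both libraries with SKF plus JQ1 lay above both with JQ1, which adds no support beyond the test on these libraries. The values with DMSO and SKF are those that chose the gene. Under JQ1 the gene rose 2.09-fold (log2 difference of 1.06 ± 0.078, SE, adjusted p = 8.43e-07). Adm, the vasodilator peptide adrenomedullin and the other secreted factor of the list, was near the lower limit of the test, with values from 0.124 to 0.363 with SKF plus JQ1 and from 0.175 to 0.187 with JQ1 (log2 difference of 0.10 ± 0.185).

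Among the glycolytic enzymes from aldolase to pyruvate kinase, 5 of 7 rose. Aldoa, the aldolase that splits fructose bisphosphate, was at 242 and 243 FPKM with JQ1 and at 349.8 and 353 with SKF plus JQ1 (log2 difference of 0.52 ± 0.049, adjusted p = 1.64e-05). Eno1, the ubiquitous enolase, was at 141 and 144 with JQ1 and at 199 and 199.7 with both agents (0.46 ± 0.042, adjusted p = 1.12e-05). Pkm, pyruvate kinase, was at 99.2 and 97.9 with JQ1 and at 128 and 129 with both agents (0.36 ± 0.044, adjusted p = 0.000227). In each of these genes the replicates lay close together and far from the other group, which adds no support, since the test on these libraries picked them. Pgk1, phosphoglycerate kinase, went from 32.1 and 30.8 to 43.3 and 43.8 (0.44 ± 0.072, adjusted p = 0.00391), and Tpi1, triosephosphate isomerase, from 30.9 and 30.8 to 43.0 and 42.1 (0.44 ± 0.075, adjusted p = 0.00632). Tpi1 overlaps a gene model on the opposite strand, LOC100911548, which did not exceed 0.598 FPKM in any library. Pgam1, phosphoglycerate mutase, did not pass (0.17 ± 0.063, adjusted p = 0.25).

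In the upper part of glycolysis the isoforms differed in whether they passed. Gpi, glucose phosphate isomerase, stood at 197 and 198 FPKM with JQ1 and at 247 and 267 with SKF plus JQ1 (0.36 ± 0.057, adjusted p = 0.00331). Of the phosphofructokinase genes, the liver-type Pfkl rose from 18.5 and 17.5 to 22.9 and 23.4 (0.34 ± 0.064, adjusted p = 0.0131). The muscle-type Pfkm (log2 difference of -0.013, 95% interval from -0.094 to 0.068) and the platelet-type Pfkp (0.11 ± 0.064) did not pass the test. Of the hexokinases, Hk2, the inducible form, rose from 0.148 and 0.195 to 0.499 and 0.486 (0.57 ± 0.108, adjusted p = 0.0131), while Hk1, the main form of brain, did not pass (0.11 ± 0.053, adjusted p = 0.403). Eno2, the neuronal enolase, did not pass either, at 91.9 and 96.2 with JQ1 and 93.9 and 102 with both agents (0.034 ± 0.060). Whether the isoforms of a pair differed from each other in their response was not tested.

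Ldha, which makes lactate from pyruvate, rose under JQ1 from 73.0 and 76.4 to 116 and 117 FPKM. After size factors and the added 0.5 this was 1.53-fold (log2 difference of 0.61 ± 0.057, adjusted p = 1.23e-05). The values that chose it were 85.6 and 84.3 with DMSO and 125 and 139 with SKF alone. Slc16a3, a lactate exporter known as MCT4, was the weakest gene of the list and did not pass (0.181 and 0.186 against 0.528 and 0.359, adjusted p = 0.13). It too entered the test through libraries with SKF at 24 h, namely replicate 6 of SKF and replicate 5 of SKF plus JQ1. Pdk1, the kinase that holds back pyruvate dehydrogenase, did not pass (0.17 ± 0.078, adjusted p = 0.379).

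Slc2a1, the glucose transporter GLUT1, rose from 5.96 and 5.62 to 8.56 and 7.52 FPKM (0.42 ± 0.084, adjusted p = 0.0179). Slc2a3, the neuronal transporter GLUT3, was at 17.6 and 17.8 with JQ1 and at 16.6 and 19.0 with both agents (-0.016, 95% interval from -0.171 to 0.140). Kdm3a, a histone demethylase and known HIF target, rose from 9.71 and 9.15 to 13.2 and 12.1 (0.38 ± 0.063, adjusted p = 0.00413). The collagen prolyl hydroxylases P4ha1 (0.20 ± 0.081, adjusted p = 0.317) and P4ha2 (-0.057 ± 0.127) did not pass.

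The oxygen-sensing genes themselves did not pass the test. Hif1a was at 41.5 and 42.3 FPKM with JQ1 and at 46.3 and 46.6 with both agents (0.13 ± 0.050, adjusted p = 0.278). Egln1 gave 0.16 ± 0.092, Egln3 -0.098 ± 0.080 and Vhl -0.050 ± 0.070 on the log2 scale. These are transcript levels and do not measure the Hif1a protein. The genes of mitochondrial adaptation also stayed short of the threshold: Bnip3, a mitophagy receptor, was at 42.5 and 42.7 with JQ1 and at 49.3 and 48.6 with both agents (0.18 ± 0.054, adjusted p = 0.141), and Ak4, a mitochondrial adenylate kinase, went from 0.546 and 0.909 to 1.13 and 1.22 (0.46 ± 0.155, adjusted p = 0.202). Ankrd37, a small ankyrin repeat gene known as a HIF target, was at 0.267 and 0.380 with JQ1 and at 0.856 and 0.777 with both agents (0.68 ± 0.170, adjusted p = 0.0692). Ddit4, an inhibitor of mTORC1 signalling, gave 0.17 ± 0.048 (adjusted p = 0.124), and Pfkfb3, which makes the activator of phosphofructokinase, gave 0.26 ± 0.090 (adjusted p = 0.219). Its relative Pfkfb4 gave 0.13 ± 0.112, Bnip3l 0.094 ± 0.043 and Higd1a, of the respiratory chain, 0.030 ± 0.062.

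Vegfa, Eno1, Ldha, Aldoa, Pkm and Gpi passed the test under JQ1 with any of the 23 libraries left out. The call ended for Pgk1 without replicate 6 of JQ1 (adjusted p = 0.0633), for Kdm3a without replicate 6 of JQ1 (0.0735) or replicate 5 of SKF plus JQ1 (0.0751), and for Tpi1 without replicate 5 (0.0564) or 6 (0.0633) of JQ1 or replicate 5 of SKF plus JQ1 (0.0552). It ended for Slc2a1 without replicate 5 (0.077) or 6 (0.177) of JQ1 or replicate 5 of SKF plus JQ1 (0.237), and for Pfkl and Hk2 without any of the 4 libraries compared (adjusted p from 0.0504 to 0.161). The number that rose was then 8 without replicate 5 of JQ1, 6 without replicate 6, and 7 and 10 without replicates 5 and 6 of SKF plus JQ1. When experiment 3 was fitted alone, 6 of the 35 rose (and 36 genes changed in all): Vegfa, Eno1, Ldha, Aldoa, Pkm and Tpi1.

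**Figure D2:**
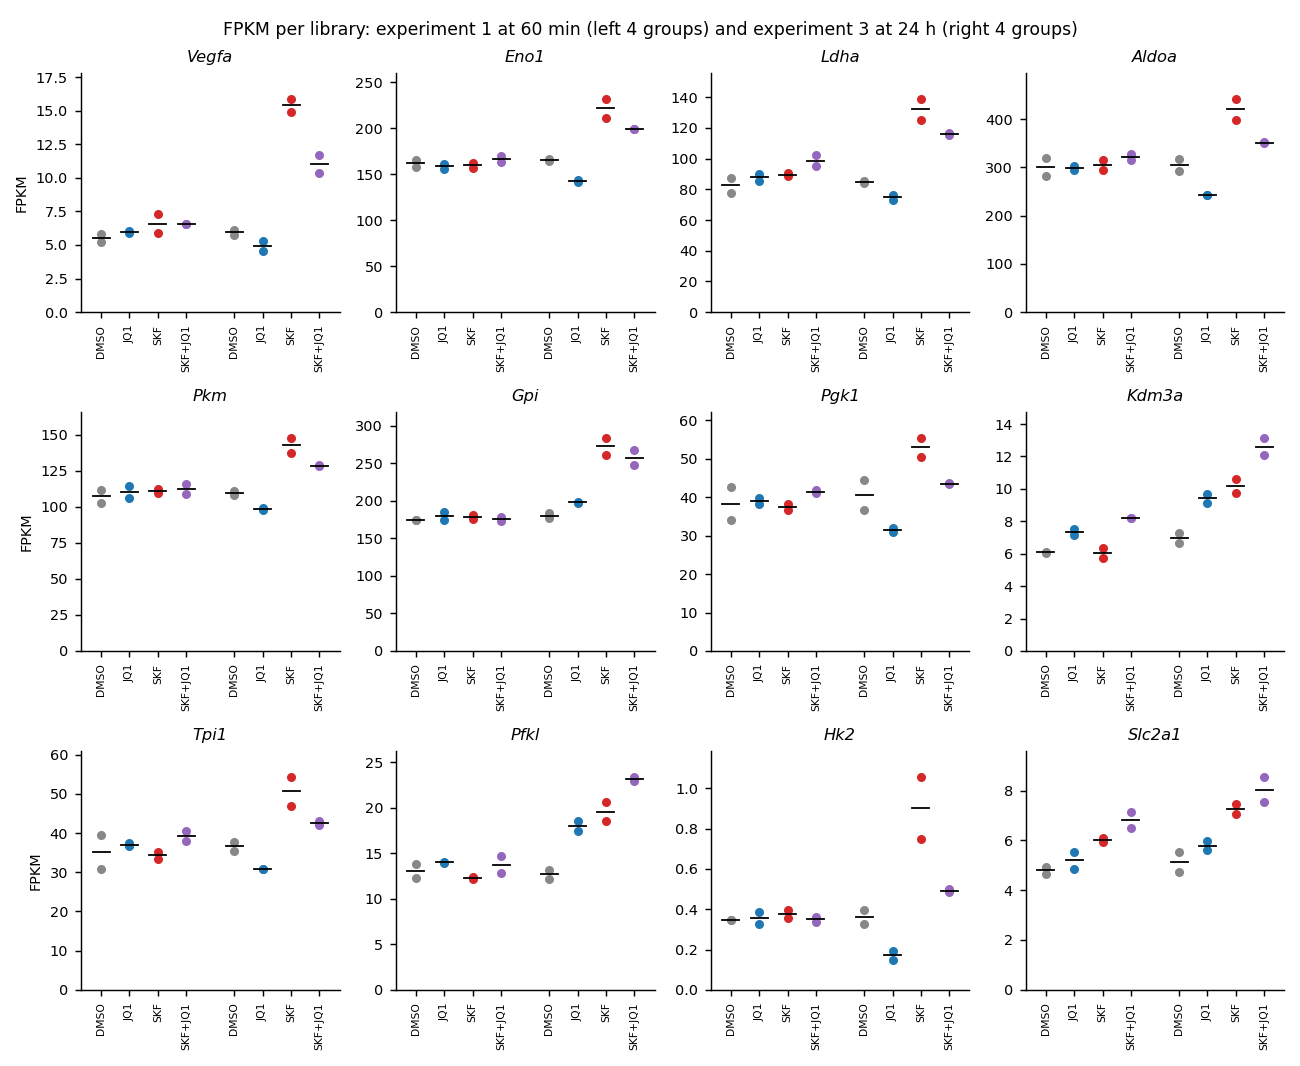
FPKM as deposited, per library, for the 12 genes that rose with SKF under JQ1 at 24 h, in order of p; points are libraries, lines are group means, and each vertical axis starts at 0. Experiment 1 at 60 min is on the left of each panel and experiment 3 at 24 h on the right, with DMSO, JQ1, SKF and SKF plus JQ1 in that order. For Vegfa at 24 h the libraries with SKF plus JQ1 lie at 11.7 and 10.3 and those with JQ1 at 5.30 and 4.59; the DMSO and SKF libraries at 24 h chose the genes.

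The deposited files split Aldoa into 3 transcripts with different starts, and their levels are estimates by StringTie from shared reads. The main transcript, ENSRNOT00000080988, made up 94.3 to 94.7% of Aldoa with DMSO or SKF at 24 h and 97.7 to 98.4% with JQ1 or both agents. ENSRNOT00000088473, which starts 1244 bases further upstream, was at 15.6 and 14.4 FPKM with DMSO, 2.63 and 2.65 with JQ1, 19.6 and 21.3 with SKF and 5.06 and 4.12 with both agents. Its levels without JQ1 all lay above those with JQ1, and at 60 min it was at 13.7 and 13.6 with JQ1 and 14.8 and 7.89 with DMSO. Transcripts were not tested. The Aldoa window printed above is the one at the start of the main transcript, by the spacing of the starts, which is the same in the files' build and in GRCr8.

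Other genes of the pathways, from lists drawn up beside the 35, were counted in the same comparison. None of 17 tested proteins of the HIF pathway passed limma's test in either direction (2 had an unadjusted p under 0.05), nor did any of 23 further genes of glycolysis and pyruvate handling (4) or of 7 pentose phosphate genes (2). Of 35 further hypoxia targets tested, 2 rose: Tfrc, the transferrin receptor, and Mif, a cytokine. Tfrc was at 37.9 and 30.1 FPKM with JQ1 and at 118 and 116 with SKF plus JQ1 (log2 difference of 1.75 ± 0.087, adjusted p = 7.1e-09), with 61.3 and 55.7 under DMSO and 138 and 142 under SKF. Mif was at 65.6 and 69.0 with JQ1 and at 95.4 and 97.5 with both agents (0.50 ± 0.053, adjusted p = 5.32e-05). The median of that list was 0.11, beside -0.002 over all genes tested.

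At 60 min, in experiment 1, SKF under JQ1 raised 2 of the 35 genes, Pfkfb3 (0.51 ± 0.090, adjusted p = 0.00373) and Slc2a1 (0.37 ± 0.084, adjusted p = 0.0345), where 1.18% of all genes rose. The difference between 24 h and 60 min in this response passed the test for 6 genes, all larger at 24 h, where 0.121% of all genes tested did so. They were Vegfa (0.93 ± 0.111, adjusted p = 0.000142), Ldha (0.44 ± 0.080, adjusted p = 0.00772), Aldoa (0.41 ± 0.069, adjusted p = 0.00441), Eno1 (0.39 ± 0.059, adjusted p = 0.00173), Gpi (0.38 ± 0.081, adjusted p = 0.0248) and Pkm (0.33 ± 0.063, adjusted p = 0.00992). Tfrc and Mif of the further targets also passed (adjusted p = 3.16e-06 and 0.00992), and of the HIF pathway proteins Siah2, a ubiquitin ligase known to act on the prolyl hydroxylases, had a response lower at 24 h than at 60 min (-0.76 ± 0.111, adjusted p = 0.00115). Vegfa, Aldoa and Eno1 passed with any library left out; Ldha lost its call without replicate 5 of JQ1 at either time or replicate 6 of SKF plus JQ1 at 60 min (adjusted p from 0.0564 to 0.0611), Pkm without 3 libraries (0.0517 to 0.0917) and Gpi without 6 (0.0776 to 0.181). Of the 60 min calls, Pfkfb3 ended without replicate 5 of JQ1 (0.0636) or of SKF plus JQ1 (0.0709), and Slc2a1 without any of the 4 libraries compared (0.0581 to 0.521).

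**Figure D3:**
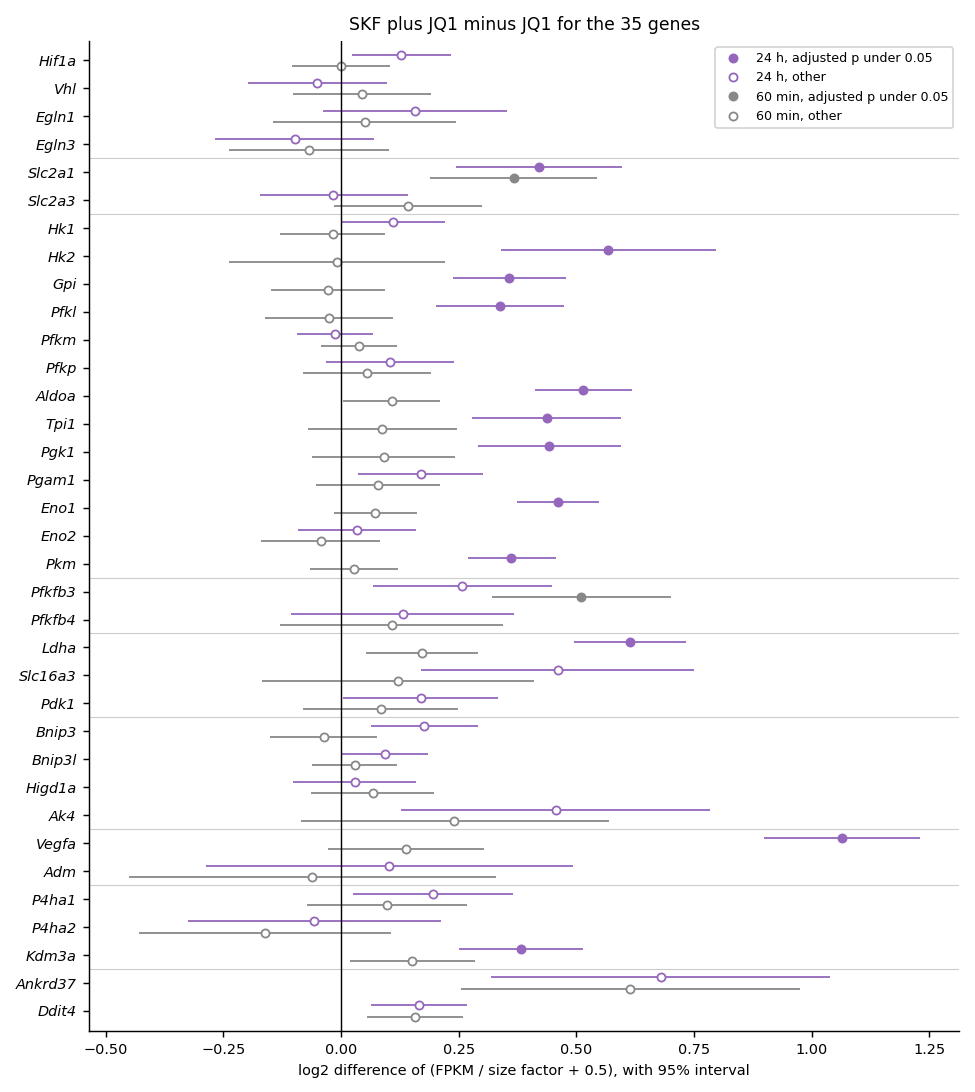
Log2 difference of SKF plus JQ1 against JQ1 for each of the 35 genes at 24 h (purple, experiment 3) and 60 min (grey, experiment 1), with 95% intervals; filled points passed the test, and grey lines part the role groups from oxygen sensing at the top to other HIF targets at the bottom. At 24 h Vegfa stands at 1.06 and Ldha at 0.61; at 60 min they stand at 0.14 and 0.17.

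The genes that rose with SKF alone at 60 min were both glucose transporters, Pfkfb3 and Ddit4. Over experiments 1 and 2 together, 4 of the 35 rose and none fell, against 3.06% and 0.921% of all genes tested. Slc2a3 was at 18.7 and 18.5 FPKM with DMSO and 23.2 and 25.4 with SKF in experiment 1, and at 22.5 and 20.1 against 26.9 and 27.5 in experiment 2 (log2 difference of 0.39 ± 0.053, adjusted p = 9.31e-05). Slc2a1 was at 4.94 and 4.66 against 5.95 and 6.08, and at 3.87 and 4.46 against 5.86 and 5.62 (0.39 ± 0.059, adjusted p = 0.000384). In both genes each SKF library lay above each DMSO library of its own experiment, which adds no support, since these libraries picked them. Pfkfb3 was at 9.94 and 9.38 against 12.7 and 10.9, and at 8.61 and 7.56 against 10.6 and 10.8 (0.36 ± 0.064, adjusted p = 0.00195). Ddit4 was at 15.9 and 14.4 against 16.8 and 15.9, and at 15.8 and 15.9 against 17.8 and 19.1 (0.19 ± 0.034, adjusted p = 0.0021). All 4 calls held with any library left out. With the experiments fitted as separate comparisons, experiment 1 gave Slc2a3 alone (0.40 ± 0.074, adjusted p = 0.00525), beside 0.32 for Slc2a1, 0.29 for Pfkfb3 and 0.13 for Ddit4, where 1.55% of all genes rose, and experiment 2 gave all 4 genes (0.25 to 0.45), where 2.01% rose. With deposited FPKM not divided by size factors experiment 2 gave 2 of the 35, and with no filter on low values 3.

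Of the HIF pathway proteins, 3 of 17 rose with SKF at 60 min, where 3.06% of all genes did: Siah2 by 0.91 ± 0.055 (adjusted p = 3.76e-09), Cited2, a known competitor of Hif1a for its coactivator, by 0.33 ± 0.044 (adjusted p = 9.7e-05), and Cul2, the cullin of the Vhl ligase, by 0.14 ± 0.033 (adjusted p = 0.027). Siah2 was at 14.6 and 13.1 FPKM with DMSO and 22.9 and 26.7 with SKF in experiment 1, and at 15.3 and 15.3 against 30.5 and 29.3 in experiment 2. Of the further hypoxia targets 2 of 35 rose, Mxi1 (0.35 ± 0.026, adjusted p = 4.71e-08) and Bhlhe40 (0.31 ± 0.062, adjusted p = 0.00546), both transcriptional repressors, which is a share near that of all genes. Txnip, which limits glucose uptake, fell by 0.89 on the log2 scale (adjusted p = 1.3e-05).

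JQ1 for 60 min moved 3 of the 35 genes. Ddit4 rose, from 15.9 and 14.4 FPKM to 19.2 and 18.9 (0.34 ± 0.048, adjusted p = 0.000239), as did Kdm3a, from 6.14 and 6.02 to 7.55 and 7.15 (0.28 ± 0.063, adjusted p = 0.0141), where 1.78% of all genes rose. Pfkfb3 fell by 0.53 on the log2 scale, from 9.94 and 9.38 to 6.39 and 6.50 (adjusted p = 0.00138), where 2.7% of all genes fell. In all 3 genes the JQ1 libraries did not overlap the DMSO libraries, which adds no support, since the test on these libraries picked the genes. Kdm3a lost its call without replicate 5 of DMSO (adjusted p = 0.0888) or of JQ1 (0.159). Txnip was raised by JQ1 (1.93 ± 0.135, adjusted p = 1.6e-07), opposite to its direction with SKF.

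JQ1 added to SKF for 60 min shares the SKF libraries with the SKF comparison above. It gave 2 higher genes, Kdm3a (0.42 ± 0.063, adjusted p = 0.000296) and Ddit4 (0.37 ± 0.048, adjusted p = 6.95e-05), and 2 lower ones, Slc2a3 (-0.32 ± 0.074, adjusted p = 0.0117) and Pfkfb3 (-0.31 ± 0.090, adjusted p = 0.0486), where 2.69% of all genes rose and 3.88% fell. Slc2a3 was at 23.2 and 25.4 FPKM with SKF and at 19.8 and 18.8 with both agents, next to 18.0 and 17.0 with JQ1. Its call ended without replicate 6 of SKF (adjusted p = 0.169) or replicate 5 (0.0546) or 6 (0.101) of SKF plus JQ1, and that of Pfkfb3 held in 7 of 23 omissions. The test of whether JQ1 changed the SKF response at 60 min called none of the 35 genes and 1 of all genes tested (0.00714%) with limma; at an unadjusted p under 0.05 it marked only Slc2a3 of the 35 (-0.25, 95% interval from -0.477 to -0.032). The interval for Pfkfb3 ran from -0.051 to 0.488 and that for Slc2a1 from -0.204 to 0.297.

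iBD2 for 60 min called none of the 35 genes with limma, where 0.164% of all genes rose and none fell. At an unadjusted p under 0.05 it marked 1 of the 35, P4ha1 (0.21 ± 0.081). Pfkfb3 was at 7.63 and 7.42 FPKM with iBD2 against 8.61 and 7.56 with DMSO, and Ddit4 at 16.0 and 15.6 against 15.8 and 15.9, with libraries that overlapped for Pfkfb3 and Ddit4 alike. The lone library with SKF and iBD2, assumed to vary as the other groups did, gave 3 higher genes against iBD2: Slc2a1 (0.45 ± 0.103, adjusted p = 0.0326), Pfkfb3 (0.48 ± 0.111, adjusted p = 0.0374) and Ddit4 (0.28 ± 0.059, adjusted p = 0.0214), where 1.3% of all genes rose. Each of these calls ended without replicate 1 or without replicate 2 of iBD2 (adjusted p from 0.0509 to 0.201), and that of Pfkfb3 held in 12 of 22 omissions and 3 of 6 alternative settings. With deposited FPKM, no filter, the replicate block or only the experiments compared, 2 genes rather than 3 were called. iBD2 added to SKF called none of the 35 with limma (1 at an unadjusted p under 0.05, again P4ha1) and 0.0214% of all genes. Between the inhibitors, whose doses the labels do not give and whose experiments differ, the effects on Ddit4 differed by 0.31 ± 0.068 (adjusted p = 0.0404), where 0.529% of all genes were higher; this call held in 13 of 23 omissions and ended without any of the 8 libraries compared (adjusted p from 0.051 to 0.149).

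**Figure D4:**
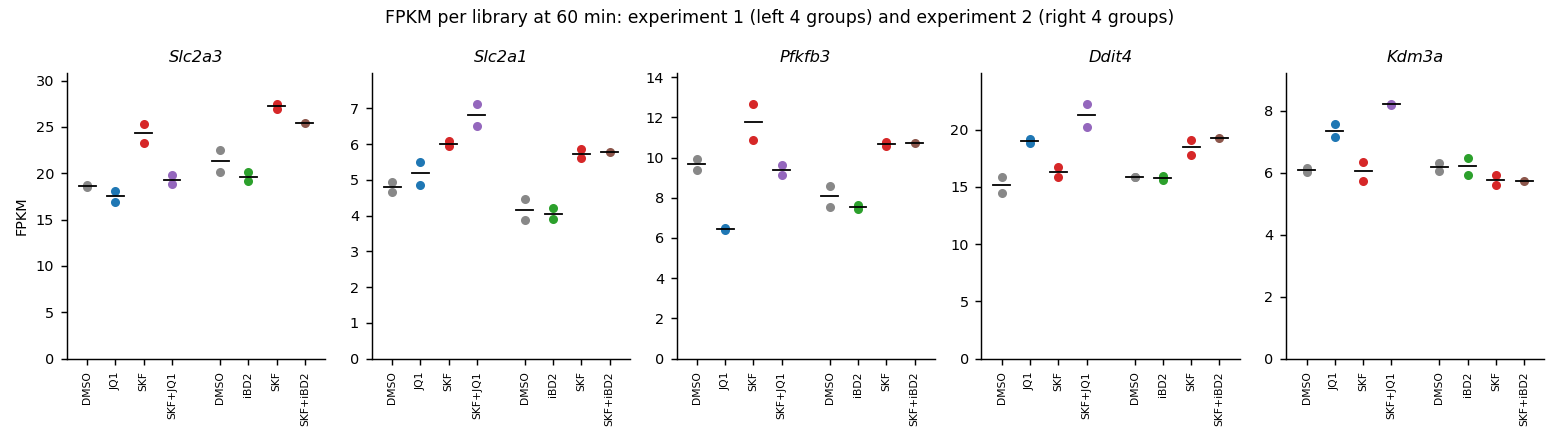
FPKM as deposited, per library, at 60 min for the 4 genes that rose with SKF and for Kdm3a; points are libraries, lines are group means, and axes start at 0. Slc2a3 stands at 23.2 and 25.4 with SKF in experiment 1 and at 19.8 and 18.8 with JQ1 added, while in experiment 2 it stands at 26.9 and 27.5 with SKF and at 25.4 in the library with iBD2 added.

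With JQ1 alone for 24 h, 10 of the 35 genes rose, 15 fell and 10 did not pass the test. This comparison shares the DMSO libraries with the one that chose the genes, which tilts it towards higher values with JQ1. Over all genes tested 24.1% rose and 31.9% fell, so the shares were 25 of 35 against 55.9% overall; the median was -0.12 for the 35 and -0.030 for all genes tested. With deposited FPKM not divided by size factors, 7 rose and 17 fell. The largest rises were those of P4ha1, from 2.47 and 2.50 to 4.33 and 4.20 FPKM (0.73 ± 0.081, adjusted p = 1.1e-06), Pfkl, from 13.2 and 12.2 to 18.5 and 17.5 (0.54 ± 0.064, adjusted p = 2.37e-06), and Kdm3a, from 7.30 and 6.67 to 9.71 and 9.15 (0.46 ± 0.063, adjusted p = 9.79e-06). Bnip3l, a mitophagy receptor, rose by 0.39 ± 0.043 and Eno2 by 0.33 ± 0.060, and Ak4, Egln1, Slc2a1, Pgam1 and Gpi rose by 0.19 to 0.38. The largest falls were those of Pfkfb3, from 11.2 and 8.66 to 6.29 and 5.70 (-0.62 ± 0.090, adjusted p = 2e-05), and P4ha2, from 1.04 and 0.853 to 0.427 and 0.567 (-0.51 ± 0.127, adjusted p = 0.00266). Pfkfb4, Egln3, Hk2, Hk1, Pgk1, Pfkp, Higd1a, Aldoa and Pfkm fell by between 0.27 and 0.42 on the log2 scale, and Vegfa, Tpi1, Eno1 and Bnip3 by 0.14 to 0.20. Within the phosphofructokinases Pfkl rose while Pfkm and Pfkp fell, and within the enolases Eno2 rose while Eno1 fell. Microglia markers fell in the same libraries, 10 of 10, as did 3 of 9 astrocyte markers; their part in these results was not tested. Set against the effect at 60 min, the JQ1 effect at 24 h was higher for 5 of the 35 genes and lower for 11, where 14.4% and 21.5% of all genes differed in these directions. The share that was higher was near that of all genes. This difference also uses the DMSO libraries of the comparison that chose the genes.

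Of these 25 calls, 15 held with any library left out. Without replicate 6 of JQ1 the value of Ak4 was 0.16 (adjusted p = 0.465) and that of Vegfa -0.10 (0.377), and without replicate 5 of DMSO Ak4 was at 0.25 (0.282) and Pgam1 at 0.13 (0.136), while Pgk1 still passed at -0.20 (0.0471). Without replicate 5 of JQ1, Ak4 was at 0.60 (0.00891). Without replicate 6 of DMSO, Bnip3 was at -0.074 (0.336), Egln1 at 0.15 (0.268) and Slc2a1 at 0.14 (0.271). Gpi ended without replicate 5 of DMSO (0.104), Hk2 without replicate 5 of DMSO (0.0839) or of JQ1 (0.0895), Pfkfb4 without replicate 5 of JQ1 (0.0581), and Tpi1 without any of the 4 libraries compared (0.0894 to 0.144). Vegfa also ended without either DMSO library (0.098 and 0.136), Pgam1 without replicate 6 of JQ1 (0.0607), and Bnip3, Egln1 and Slc2a1 without either JQ1 library (0.0601 to 0.179). In all, the calls of Ak4, Tpi1 and Vegfa held in 10, 13 and 13 of 23 omissions.

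JQ1 added to SKF for 24 h shares the SKF libraries with the comparison that chose the genes. Here 5 of the 35 were higher with JQ1 and 17 lower, where 24.7% and 31.2% of all genes were. The list was chosen for high values in these SKF libraries, which tilts the comparison towards lower values with JQ1. Nothing is therefore read from these counts. P4ha1 (0.55 ± 0.081), Bnip3l (0.45 ± 0.043), Kdm3a (0.33 ± 0.063), Pfkl (0.28 ± 0.064) and Eno2 (0.18 ± 0.060) rose. Vegfa fell by 0.43 on the log2 scale (adjusted p = 0.000182), P4ha2 by 0.63, Pfkfb3 by 0.57, Ankrd37 by 0.48, Hk2 by 0.47, Pfkp by 0.39 and Higd1a by 0.37. Hk2, one of the 17, entered the test only through the 2 SKF libraries compared here, so no support is drawn from its fall. Without replicate 6 of SKF, which was the higher SKF library for these genes, the values of Ankrd37 (-0.20, adjusted p = 0.388), Eno1 (-0.051, 0.389), Ldha (-0.071, 0.391), Pgk1 (-0.18, 0.112), Pkm (-0.062, 0.354) and Tpi1 (-0.11, 0.321) no longer passed, and Eno2 was at 0.11 (0.195) without replicate 6 of SKF plus JQ1 and at 0.16 (0.104) without replicate 5 of SKF. The same 6 also ended without replicate 5 of SKF plus JQ1 (0.0531 to 0.157), all of them but Pgk1 without its replicate 6 (0.0508 to 0.0989), and Pkm without either JQ1 library (0.0507 and 0.0516). Without replicate 5 of SKF, Ankrd37 was at -0.77 (0.00225). The SKF response without and with JQ1 at 24 h, given side by side with no test, was 1.30 and 1.06 for Vegfa, 1.07 and 0.46 for Ak4, 1.15 and 0.68 for Ankrd37, 0.60 and 0.34 for Pfkl, 0.63 and 0.61 for Ldha, and 0.46 and 0.52 for Aldoa.

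**Figure D5:**
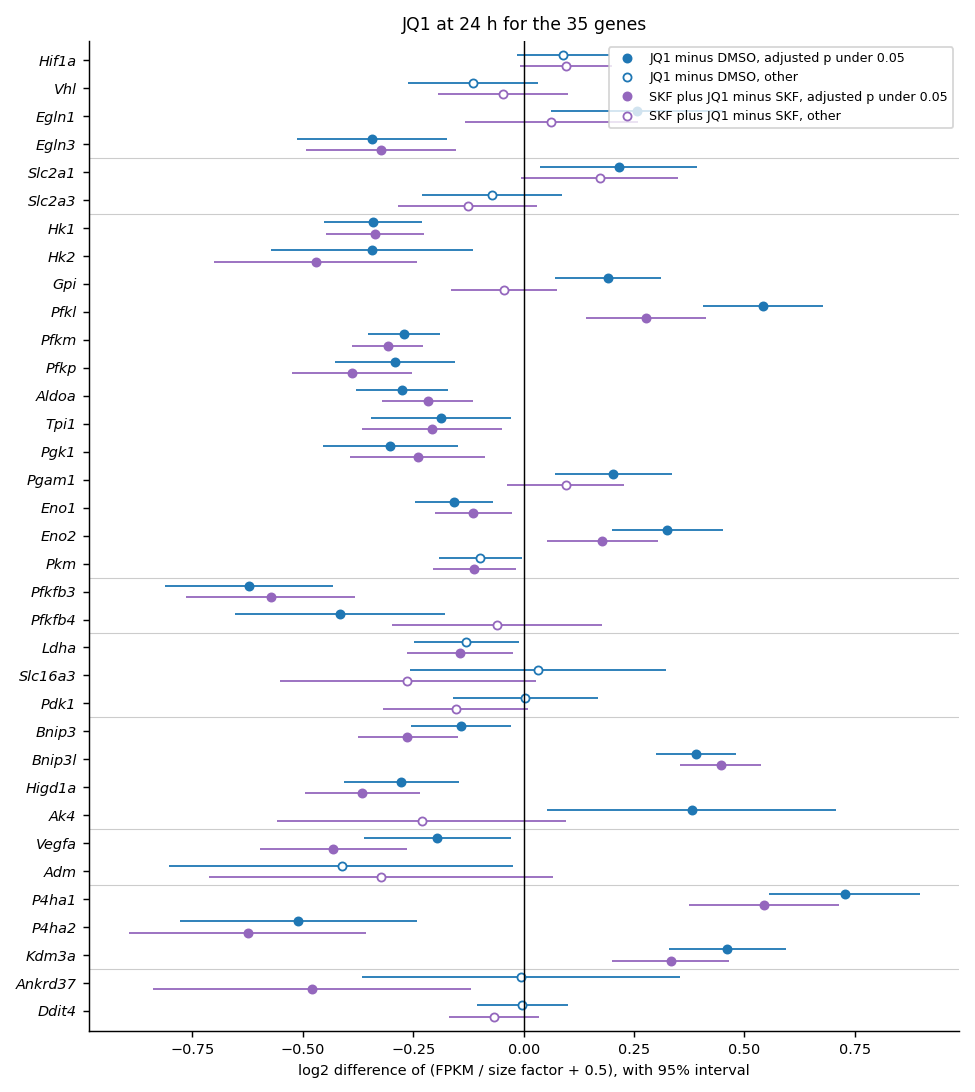
Log2 difference with JQ1 at 24 h for each of the 35 genes, against DMSO (blue) and in the presence of SKF (purple), with 95% intervals; filled points passed the test, and the role groups run from oxygen sensing at the top to other HIF targets at the bottom. P4ha1 stands furthest to the right against DMSO at 0.73, and Pfkfb3 furthest to the left at -0.62. Each comparison shares its libraries without JQ1 with the comparison that chose the genes.

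The levels of these genes spanned a wide range in FPKM, which is scaled to transcript length. Aldoa was the most abundant, with 242 to 481 FPKM over the 23 libraries and a median of 329, followed by Gpi, with a median of 198, and Slc16a3 was the least, with a median of 0.216. Cultures given DMSO for 60 min were set side by side in deposited FPKM, not divided by size factors. In these values 25 of the 35 genes had both libraries of experiment 2 above both of experiment 1. For 7 both lay below, and 3 overlapped. Of all genes tested, 43.9% stood apart upwards and 27.2% downwards in the same way. The size factors were 1.022 and 0.963 in experiment 1 and 1.071 and 1.068 in experiment 2. Division by them lowers experiment 2 against experiment 1, and the genes were not counted on that scale. Ldha stood at 87.5 and 77.6 FPKM in experiment 1 and 153 and 142 in experiment 2, Vegfa at 5.85 and 5.20 against 9.65 and 10.5, and Pgk1 at 42.6 and 34.0 against 66.7 and 65.9. In deposited FPKM the Ldha values of the DMSO libraries of experiment 2 lay above those of the SKF libraries of experiment 3, at 125 and 139. The size factors of these DMSO libraries were larger than those of the SKF libraries, and after division by them the libraries of these groups overlap. No difference in Ldha between these groups is therefore read from the deposited values. The astrocyte sum was lower in experiment 2 (138 to 149 with DMSO, against 389 to 409 in experiment 1); its part in the levels was not tested, and all comparisons above are within an experiment or between such differences.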

How the data were processed

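RNA of 23 libraries was analysed. Per the submitters' processing notes, Trim Galore, FastQC, STAR, StringTie and DESeq2 were used with the genome build Rnor_6.0; tool versions, settings and whether counting used strand are not given in the sources used here, although the kit is stranded per the labels. The deposited transcript tables give FPKM for 41078 transcripts, and the authors' signal column (mean coverage per base) gave each library's aligned bases. No read counts were used, and the reads behind each value are unknown. How reads shared with close paralogues or pseudogenes of the glycolytic enzymes were assigned is not given, which makes their levels less certain.

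FPKM was summed over transcripts by gene, divided by a median-ratio size factor (0.96 to 1.07) and put on a log2 scale with a pseudocount of 0.5. Genes were kept that reached an FPKM of 0.5 in 2 or more libraries and whose longest transcript had 200 bases or more. limma 3.58.1 (trend, robust, two-sided) in R 4.3.3 fitted 1 mean per group over all 23 libraries, with 11 residual degrees of freedom before its prior, and p-values were adjusted by Benjamini-Hochberg over the 13999 genes tested, with a threshold of 0.05. Groups of 2 share 1 estimate of the spread. Errors after ± are standard errors, and intervals are at 95%. The method was tested on simulated data. The members and lists were chosen with earlier results of these data known. Any of the 35 genes may be named, with values per library for those that passed under JQ1 at 24 h and for at least 1 gene of each role. Of the other lists, up to 4 genes that passed there by smallest p and any HIF pathway protein that passed were to be named, with Hexim1, Nr4a2 and Txnip as checks; Mxi1, Bhlhe40, C1qc and the transcripts of Aldoa were chosen after their values were seen. Ero1l, Rcor2, Gapdh, Hkdc1, Pgd, Pecam1 and Col1a2, listed by symbol, are not analysed here. Alternatives were deposited FPKM without size factors, pseudocounts of 0.1 and 1, no filter, a replicate block, a fit of only the experiments compared, and leaving out each library.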

Additional observations from a re-analysis of the deposited data

Results flagged for a closer look

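Effects of the same treatment differed between times or inhibitors, by limma's test of the difference itself, for the results given here. The SKF response under JQ1 was larger at 24 h than at 60 min for Vegfa (log2 difference of 0.93), Ldha (0.44), Aldoa (0.41), Eno1 (0.39), Gpi (0.38) and Pkm (0.33).

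The JQ1 effect against DMSO was higher at 24 h than at 60 min for Ak4 (0.58), P4ha1 (0.56), Pfkl (0.42), Bnip3l (0.36) and Eno2 (0.23), where 14.4% of all genes tested were higher. The share of the list that was higher was near that of all genes. The JQ1 effect was lower at 24 h for P4ha2 (-0.59), Hk1 (-0.38), Pgk1 (-0.36), Ddit4 (-0.34), Vegfa (-0.31), Pfkp (-0.31), Higd1a (-0.31), Tpi1 (-0.30), Aldoa (-0.29), Pfkm (-0.29) and Ldha (-0.24), where 21.5% of all genes were lower. These differences in both directions use the DMSO libraries at 24 h, which were part of the comparison that chose the genes. Ddit4 rose with JQ1 at 60 min, while at 24 h its JQ1 libraries, at 18.2 and 17.6 FPKM, overlapped those with DMSO, at 19.3 and 18.0. Of these 16 differences, those of Aldoa, Bnip3l, Ddit4, Hk1, P4ha1, Pfkl and Pfkm passed with any library left out. Without replicate 6 of DMSO at 60 min, Tpi1 was at -0.16 (adjusted p = 0.215) and Pgk1 at -0.24 (0.0695); Eno2 was at 0.15 (0.205) without replicate 5 of DMSO at 24 h, and Ak4 at 0.36 (0.239) without replicate 6 of JQ1 at 24 h. The effect on Ddit4 at 60 min was higher for JQ1 than for iBD2 by 0.31. The times and the inhibitors come from separate experiments, which cannot be told apart from them.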

How the results depend on the processing

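Under deposited FPKM without size factors, pseudocounts of 0.1 and 1, no filter and the replicate block, 12 of the 35 genes rose with SKF under JQ1 at 24 h in each case, and no called gene changed direction under any alternative or omission. With only the experiments compared, that count was 6, with 36 genes in all. For the same response at 60 min, 1 of the 35 was called with deposited FPKM, with no filter and with only the experiments compared (115 genes in all). The JQ1 effect at 60 min then called 396 genes and iBD2 added to SKF 11; with no filter SKF under iBD2 called 389 genes and iBD2 added to SKF 199. With deposited FPKM, iBD2 called 9 genes, with a median of -0.048 over the 35, JQ1 at 24 h had a median of -0.169, and JQ1 minus iBD2 called 0 of the 35 (also 0 with no filter and with the block) and 72 higher and 36 lower genes, against 74 and 59. With only the experiments compared, JQ1 minus iBD2 called Pfkfb3 as lower (-0.47, adjusted p = 0.0391) and not Ddit4 (0.31, 0.0792), whose call held in 2 of 6 alternative settings. The test of the SKF by JQ1 interaction at 60 min called 1 gene in all, 7 with no filter, and 0 with a pseudocount of 0.1, with the block or with only the experiments compared. Whether replicate numbers pair the samples is not settled. Deviations of libraries with the same number correlated from -0.267 to 0.371 between groups of an experiment. In every group at 24 h the astrocyte and microglia sums were higher in replicate 5 than in replicate 6. The striatal neuron sums were lower in replicate 5. For SKF under JQ1 at 24 h, the replicate block moved the genes that rose from 51 to 53 and those that fell from 110 to 126. The cause of these changes was not tested, except that fewer libraries leave fewer degrees of freedom.

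Leaving out each library gave ranges. Of the 35 genes, SKF under JQ1 at 24 h called 6 to 12 (54 to 216 genes in all, median 0.169 to 0.252), its difference from 60 min 3 to 6 (78 to 140 genes, median 0.093 to 0.153), SKF under JQ1 at 60 min 0 to 2 (112 to 187 genes), SKF under iBD2 0 to 4, and JQ1 added to SKF at 60 min 2 to 4 (458 to 1028 genes). JQ1 at 60 min called 329 to 655 genes, iBD2 5 to 27 and iBD2 added to SKF 3 to 6, and JQ1 added to SKF at 24 h had a median of -0.215 to -0.093. The JQ1 effect at 24 h minus 60 min called 10 to 16 (median -0.155 to -0.100), JQ1 minus iBD2 66 to 147 genes in all (median 0.001 to 0.063), the interaction at 60 min had a median of -0.016 to 0.054, and SKF at 24 h, with no test, one of 0.240 to 0.374. Hk2 was not tested without either SKF library at 24 h, and comparisons with SKF plus iBD2 had no value without its library. Reads per gene are unknown, which limits the genes near 0.5 FPKM (Hk2, Slc16a3, Adm, Ankrd37, Ak4 and P4ha2) most.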
